A study of Drosophila melanogaster with 3 samples.

Results

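Transcription factors of the basic helix-loop-helix (bHLH) family other than Hand were followed in larval hearts of hand173 and w1118 animals. The set held 48 genes, chosen by family and listed by CG number, and comprised bHLH, bHLH-PAS, bHLH-ZIP and Hairy/E(spl) factors. Of these, 21 had a row among the 7498 rows of the value table, and 27 had no row there and were not analysed here. The animals labelled hand173 were homozygous *hand* null mutants per the labels and were set against w1118 animals as the wild type. The *hand* gene itself (CG18144) had a value on array 3 alone, a log2 ratio of -0.16, or 0.40 above the median of that array. No loss of its transcript was thus seen, and the label was not borne out by this value. Whether that spot read signal over background is unknown, so that the value cannot check the label. The extent of the lesion and the place of the probe in the gene are not given in the sources used here. Both lines were raised at 22 °C, and hearts were dissected from larvae of the last instar in the wandering stage after 15 seconds in a water bath of 60 °C. Around 100 heart tubes per genotype were collected with attached tissue, namely pericardial cells and either longitudinal ventral muscles, per the sample labels, or alary muscles, per the methods of the study. In such bulk tissue, fewer cells of a type and less RNA per cell cannot be told apart. RNA was combined into 1 pool per genotype, amplified and hybridized to 3 arrays, on which the hand173 RNA carried Alexa Fluor 647 and the w1118 RNA carried Alexa Fluor 555. The dyes were not swapped on any array, so that a difference between dyes and one between genotypes cannot be told apart. Each value is a log2 ratio of the RNA labelled hand173 over that labelled w1118, a direction taken from the dyes, since the table does not state it. The methods describe the arrays as technical replicates of pooled RNA, whereas the sample titles number them with the letters bR, which the labels do not explain. The methods were followed here, so that there was 1 sample of each genotype, no test was made, and each SD is taken to cover the spread between arrays only.

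The bHLH domain joins a basic region, which contacts DNA at E-box sequences, to a helix-loop-helix, through which the proteins pair with each other. Broadly expressed E proteins, in *Drosophila* Daughterless, pair with tissue-specific factors such as Twist or the proneural proteins, whereas the Id protein Extramacrochaetae lacks the basic region and keeps its partners from DNA. Among proteins with an additional PAS domain, some respond to hormones, oxygen or foreign compounds, and others act in the circadian clock or in cell fate. Hairy and E(spl) proteins recruit corepressors, often downstream of Notch. Hand is itself a bHLH factor of heart, pericardial and lymph gland cells, and the study discusses Daughterless, Twist, Nautilus and Hey as its pairing partners.

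The arrays differed in how many genes they covered and in their level. The number of values was 1372 for array 1, with a median of 0.97, 2650 for array 2, with a median of 0.38, and 6459 for array 3, with a median of -0.56. Values are therefore given as deposited and, where a direction is stated, also relative to the median of the array, here called the centred log2 ratio. Across genes, arrays 2 and 3 correlated with a Pearson's r of 0.77 (1982 genes), against 0.14 for arrays 1 and 3 (937 genes) and 0.09 for arrays 1 and 2 (530 genes). These correlations run across genes, which are no independent replicates. The median SD between arrays was 0.40 on centred arrays over the 2517 genes with at least 2 values, and 0.38 over the 8 bHLH factors with at least 2 values.

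Coverage of the family was thin. Array 1 held 3 of the bHLH factors, array 2 held 8 and array 3 held 19. Only *E(spl)m5-HLH* had a value on all 3 arrays, 7 factors were read on 2 arrays, and 13 on a single array, which was array 3 for 11 of them. Of the listed members, 43.8% were in the table, where they were looked up under their listed number alone. Of the protein-coding genes of the RefSeq annotation, 49.7% were found under any of their numbers, so that the shares are not counted alike. Among the factors without a row were *da*, *twi* and *Hey*, so that of the named pairing partners of Hand only *nau* could be read.

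**Figure D1:**
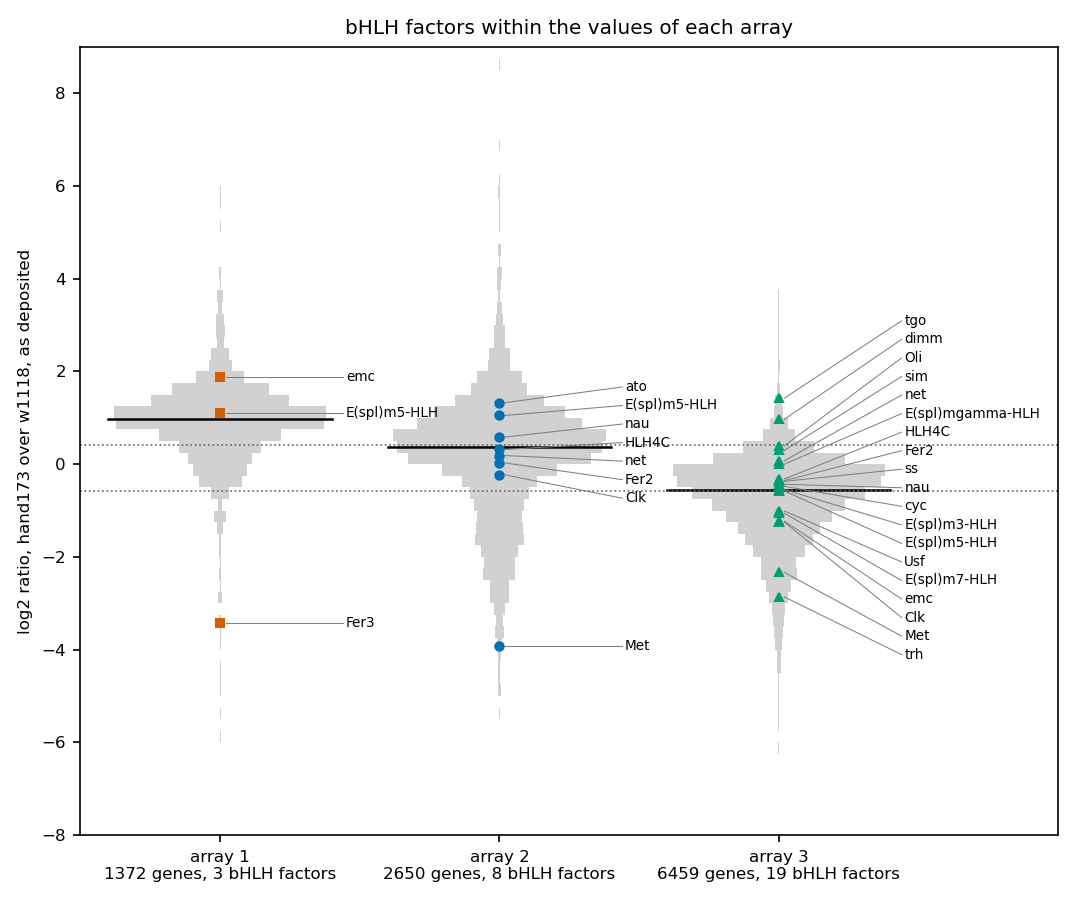
Log2 ratios of hand173 over w1118 as deposited (vertical axis) for each array (horizontal axis). Grey shapes show the distribution of all genes of an array, scaled to equal width, black lines mark its median (0.97, 0.38 and -0.56), coloured points are the bHLH factors, and dotted lines mark log2 ratios of 0.41 and -0.58. The bHLH factors lie on both sides of the median of their array, with *Met* on arrays 2 and 3, *Fer3* on array 1, and *trh*, *tgo* and *dimm* on array 3 farthest from it.

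The scoring rule of the study was applied, which asks for 2 of the 3 arrays. A gene passed upwards on an array with a log2 ratio above 0.41 and passed downwards with a log2 ratio below -0.58 (a ratio of 0.67). Of the 8 bHLH factors with at least 2 values, 1 was scored as downregulated, *Met*, and 1 as upregulated, *E(spl)m5-HLH*. The same rule scored 20.5% of all 2517 genes with at least 2 values as downregulated and 9.69% as upregulated. With each array centred on its median, *Met* and *Clk* were scored as downregulated and no factor as upregulated, beside 21.9% and 11.8% of all genes. With so few factors, these counts do not set the family apart from all genes. On array 3, as deposited, 7 of 19 factors passed downwards and 2 passed upwards, beside 49% and 6.5% of all genes of that array. On the centred array, 4 factors passed downwards and 6 upwards, beside 28.1% and 27.3% of all genes.

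The median over the 21 factors of the mean log2 ratio was 0.12 on centred arrays, with quartiles of -0.45 and 0.56, and that of all 7498 genes was 0.01, with quartiles of -0.62 and 0.46. As deposited, the medians were 0.00 and -0.24. The sign of the mean log2 ratio changed with centring for 5 of the 21 factors. On array 3, 12 of the 19 factors lay above the median of the array and 7 below it. Of the 30 single values of bHLH factors, 5 lay at or beyond the 5th or 95th percentile of their array, limits that hold 10% of all values. These 5 belonged to *Met* on array 2, *Fer3*, *trh*, *dimm* and *tgo*.

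**Figure D2:**
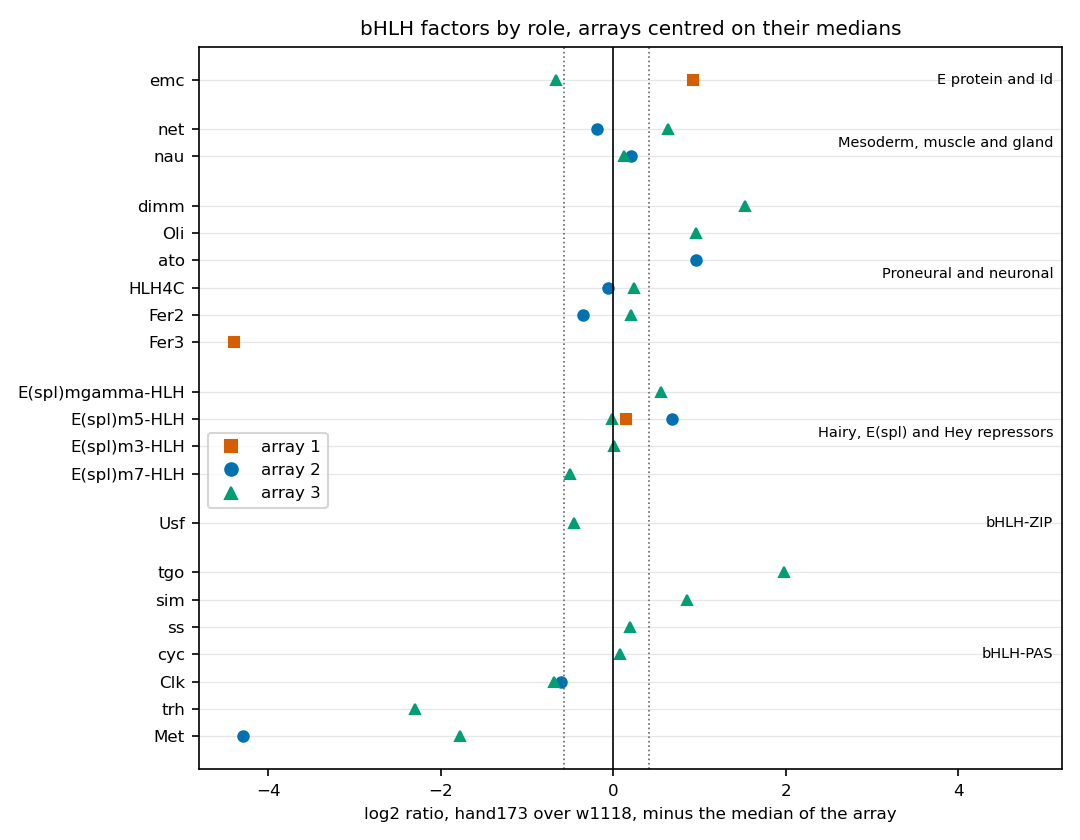
Log2 ratio of hand173 over w1118 minus the median of the array (horizontal axis) for the 21 bHLH factors with a value, grouped by role (vertical axis), with 1 symbol per array. The solid line marks the array median and dotted lines mark log2 ratios of 0.41 and -0.58. *Met* lies far below the median on both of its arrays, *Clk* just past the lower threshold on both, and *emc* on opposite sides of the median on arrays 1 and 3.

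Among the 8 listed factors with at least 2 values, *Met* (CG1705) had the lowest mean log2 ratio. It encodes Methoprene-tolerant, a bHLH-PAS receptor for juvenile hormone. Its log2 ratio was -3.92 on array 2 and -2.33 on array 3, and array 1 gave no value. These correspond to relative levels in hand173 of 0.0661 and 0.198, with w1118 at 1. Relative to the array medians the values were -4.30 and -1.78, at the 0.680 and 8.11 percentiles of the arrays. Both arrays thus placed *Met* low, but they differed in extent. The centred values lay 2.52 apart, farther than for 98.2% of the 1982 genes with both values, whose median distance was 0.42. The mean log2 ratio was -3.13 ± 1.12 as deposited and -3.04 ± 1.78 on centred arrays (SD, n = 2 arrays). The paralogous juvenile hormone receptor gene *gce* (CG6211) and *tai* (CG13109), which encodes the coactivator Taiman, had no row.

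*Clk* (CG7391) encodes the bHLH-PAS activator of the circadian clock, which pairs with Cycle and drives *per*, *tim* and *vri*. Array 2 gave a log2 ratio of -0.23 and array 3 one of -1.25, and the mean was -0.74 ± 0.72 (SD, n = 2 arrays). Array 2 did not pass the threshold as deposited, so that *Clk* was not scored. Once centred, the values were -0.61 and -0.69, a mean of -0.65 ± 0.06, and both lay just past the threshold of -0.58. The centred arrays agreed to within 0.08, closer than for all but 10.6% of the genes with both values. On arrays that were also scaled to a common spread, the value of array 2 was -0.49 and *Clk* was not scored. Its partner *cyc* (CG8727) had a value on array 3 alone, a log2 ratio of -0.48, or 0.08 above the median of that array.

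**Figure D3:**
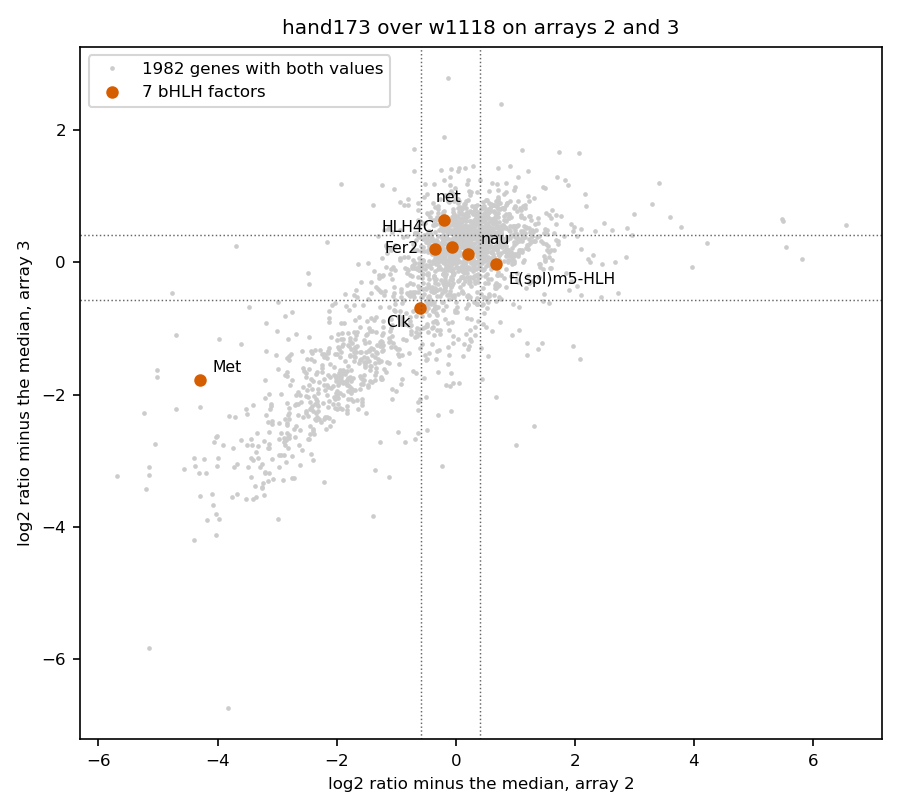
Centred log2 ratios of hand173 over w1118 on array 2 (horizontal axis) and array 3 (vertical axis). Grey points are the 1982 genes with both values, orange points the 7 bHLH factors among them, and dotted lines mark log2 ratios of 0.41 and -0.58. *Met* lies in the arm of genes low on both arrays, *Clk* at the corner of both lower thresholds, *net* past the upper threshold on array 3 and *E(spl)m5-HLH* on array 2, and *nau*, *Fer2* and *HLH4C* between the thresholds on both.

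The remaining bHLH-PAS factors were read on array 3 only and thus have no second value. *tgo* (CG11987) encodes Tango, the common partner of Single-minded, Trachealess, Spineless and Similar. Its log2 ratio was 1.42, or 1.98 above the median, at the 99.0 percentile. Among the genes of its partners, *trh* (CG6883), which directs the tracheal and salivary duct fates, had a log2 ratio of -2.86, or -2.31 relative to the median, at the 4.24 percentile. *sim* (CG7771), the regulator of the midline cells of the nervous system, had 0.30, or 0.85 above the median. *ss* (CG6993), the homologue of the aryl hydrocarbon receptor, had -0.37, or 0.19 above the median. The gene of the common partner and those of its partners thus did not share a direction on this array. *sima* (CG7951), the homologue of hypoxia-inducible factor, had no row.

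Among the Hairy, E(spl) and Hey repressors, 4 of 11 genes had a row, all of them of the E(spl) complex, whose genes respond to Notch. *E(spl)m5-HLH* (CG6096) had log2 ratios of 1.11 on array 1, 1.05 on array 2 and -0.58 on array 3, and these averaged 0.53 ± 0.96 (SD, n = 3 arrays). It was scored as upregulated from arrays 1 and 2, while its ratio on array 3 lay just under the opposite threshold. On centred arrays the values were 0.15, 0.67 and -0.02, a mean of 0.27 ± 0.36, so that only array 2 passed the threshold and the gene was no longer scored. The other 3 genes were read on array 3 alone. *E(spl)mgamma-HLH* (CG8333) had 0.56, *E(spl)m3-HLH* (CG8346) had 0.01 and *E(spl)m7-HLH* (CG8361) had -0.50 relative to the median. As deposited, the log2 ratios of *E(spl)m3-HLH* and *E(spl)m7-HLH* were -0.55 and -1.06. No common direction was thus seen within the complex. The genes *hry* (CG6494, hairy), *dpn* (CG8704), *Hey* (CG11194), *Sidpn* (CG10446), *E(spl)m8-HLH* (CG8365), *E(spl)mbeta-HLH* (CG14548) and *E(spl)mdelta-HLH* (CG8328) had no row.

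*emc* (CG1007), the Id gene, gave opposite results on its arrays. It had a log2 ratio of 1.89 on array 1 but of -1.23 on array 3, and the mean was 0.33 ± 2.20 (SD, n = 2 arrays). Centred, the values were 0.92 and -0.67, a mean of 0.12 ± 1.12. Centring thus brought the values closer but left them on opposite sides, and their distance of 1.59 was larger than for 78.5% of the 937 genes with both values. No direction can be given for *emc*, and its target *da* (CG5102) had no row.

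In the group listed as mesoderm, muscle and gland, which also held a wing vein gene, *nau* (CG10250) and *net* (CG11450) had values on arrays 2 and 3. *nau* encodes Nautilus, the homologue of MyoD and a pairing partner of Hand. Its log2 ratios were 0.59 and -0.43, which passed the threshold upwards on array 2 and did not pass it downwards on array 3. On centred arrays they were 0.21 and 0.12, a mean of 0.17 ± 0.06 (SD, n = 2 arrays), so that neither array passed a threshold. *net*, which restricts wing veins, had log2 ratios of 0.19 and 0.07, or -0.19 and 0.63 relative to the medians, on opposite sides. *twi* (CG2956), *HLH54F* (CG5005), a gene of the caudal visceral mesoderm, and *sage* (CG12952), a gene of the salivary gland, had no row.

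Of the 14 proneural and neuronal genes, 6 had a row and none was scored, though only *Fer2* and *HLH4C* had 2 values. *Fer2* (CG5952) had log2 ratios of 0.03 on array 2 and -0.36 on array 3, or -0.35 and 0.20 relative to the medians. *HLH4C* (CG3052) had 0.32 and -0.32, or -0.06 and 0.24. Both genes thus lay near the median, on opposite sides on their arrays. Each of the remaining 4 genes had 1 value. *Fer3* (CG6913) stood out with a log2 ratio of -3.44 on array 1, or -4.40 relative to the median, at the 0.511 percentile. *dimm* (CG8667), which directs the differentiation of peptidergic neurosecretory cells, had 0.97 on array 3, or 1.52 above the median, at the 98.1 percentile. *ato* (CG7508), the proneural gene of chordotonal organs and photoreceptors, had a ratio of 2.51 on array 2, a log2 ratio 0.95 above the median. *Oli* (CG5545), a gene of motor neurons, had 0.39 on array 3, also 0.95 above the median. The achaete-scute genes *ac* (CG3796), *sc* (CG3827), *l(1)sc* (CG3839) and *ase* (CG3258), as well as *amos* (CG10393), *cato* (CG7760), *tap* (CG7659) and *Fer1* (CG33323), had no row.

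The bHLH-ZIP group was represented by *Usf* (CG17592) alone, with a log2 ratio of -1.01 on array 3, or -0.45 relative to the median. The growth regulators *Myc* (CG10798), *Mnt* (CG13316) and *Max* (CG9648), as well as *SREBP* (CG8522), the regulator of fatty acid synthesis, and *crp* (CG7664) had no row.

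Further genes of the family and of the pathways in which the factors act were read for comparison. They numbered 74, of which 42 had a row under 43 numbers, and 12 of these numbers had at least 2 values. Of the 12, 4 were scored as downregulated and 2 as upregulated, as deposited and on centred arrays alike. Beside them stand shares of all genes of 20.5% and 9.69% as deposited, and of 21.9% and 11.8% on centred arrays. The lists were chosen with earlier results of these data known, so that these counts do not set them apart from all genes. Within the family, *Mitf*, the bHLH-ZIP regulator of lysosomal genes, was listed under 2 older numbers. As CG41130 it had log2 ratios of -2.76 on array 2 and -3.11 on array 3, or -3.13 and -2.56 relative to the medians, and was scored as downregulated. As CG17469 it had 1 value, -0.56 on array 2, or -0.94 relative to the median, so that both numbers lay below the median to a different extent. *Hesr* (CG5927), a gene related to *hairy*, was scored as upregulated. Its log2 ratios were 0.52, 1.06 and -0.03 on arrays 1 to 3, of which arrays 1 and 2 passed. Relative to the medians they were -0.45, 0.68 and 0.53, so that then arrays 2 and 3 passed.

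In the circadian loop of *Clk*, 6 of 7 genes had a row. *vri* (CG14029), a target and repressor of *Clk*, had log2 ratios of -0.20, -1.66 and -2.76 on arrays 1 to 3, a mean of -1.54 ± 1.28 (SD, n = 3 arrays), and was scored as downregulated. Centring gave -1.17, -2.04 and -2.20, a mean of -1.80 ± 0.56 and passed the threshold on all 3 arrays. *tim* (CG3234) had -0.26 on array 2 and -0.52 on array 3 relative to the medians and was not scored. The other 4 genes had a value on array 3 alone. There *per* (CG2647) had -1.29 and *sgg* (CG2621), which encodes a kinase of the clock proteins, had -1.56 relative to the median. The light receptor gene *cry* (CG3772) had 0.31 and *Pdp1* (CG17888), an activator of *Clk*, had 0.56. Of the 8 clock genes read on array 3, counting *Clk* and *cyc*, 5 thus lay below its median and 3 above it.

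Among the genes around SREBP, the chaperone gene *SCAP* (CG33131), which escorts SREBP to its processing, was scored as upregulated with log2 ratios of 1.37 on array 2 and 0.58 on array 3. Relative to the medians it had 0.99 and 1.14, a mean of 1.07 ± 0.10 (SD, n = 2 arrays). *FASN1* (CG3523), a fatty acid synthase gene, was scored as downregulated with log2 ratios of -4.68 and -3.30, or -5.05 and -2.74 relative to the medians. *FASN1* is active in fat body, whose markers were also read.

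Among the genes of the juvenile hormone and ecdysone response, 7 of 13 had a row. *br* (CG11491), the Broad factor of the onset of metamorphosis, was scored as downregulated with -0.96 and -1.38 on arrays 2 and 3, while array 1 gave 1.66. Relative to the medians its values were 0.69, -1.34 and -0.82 in the order of the arrays, which left array 1 opposite. *Hr3*, *Hr39* and *Jheh1* had 2 values each and lay within 0.22 of the medians. *Kr-h1*, a target of the juvenile hormone receptors, had no row. In the Notch pathway with its corepressors, 8 of 16 genes had a row, each with 1 value, between -1.01 and 0.62 relative to the medians. The 4 genes of the hypoxia response with a row had mean centred log2 ratios between -2.13 and -0.10, and the 3 nucleolar targets of Myc between -1.13 and -0.20, with values on array 3 alone for all but *scyl*.

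**Figure D4:**
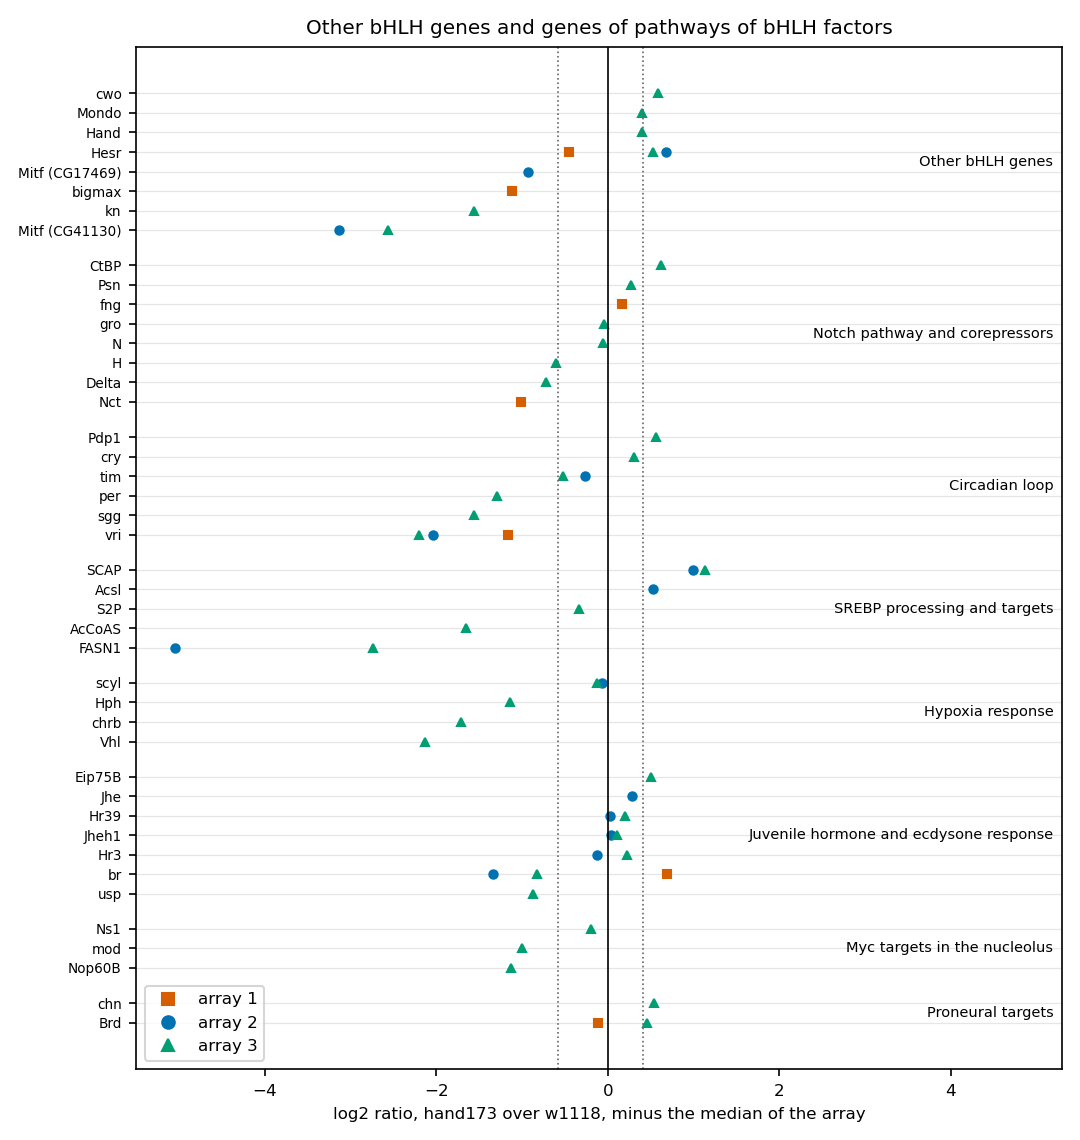
Log2 ratio of hand173 over w1118 minus the median of the array (horizontal axis) for 42 further genes under 43 numbers, grouped by list (vertical axis), with 1 symbol per array. The solid line marks the array median and dotted lines mark log2 ratios of 0.41 and -0.58. *vri* lies past the lower threshold on 3 arrays, *FASN1* and *Mitf* (CG41130) on 2, and *SCAP* past the upper threshold on 2. *br* lies past the lower threshold on arrays 2 and 3 but past the upper on array 1. *Hesr* lies past the upper threshold on arrays 2 and 3 but below the median on array 1.

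A log ratio holds no level, so that the tissue label cannot be checked from these values. Marker genes were read for their ratios only. Of 16 heart and muscle markers, 12 had a row, with mean centred log2 ratios between -1.61 and 1.78, and 1 was scored as downregulated (*Zasp52*). Of 7 fat body markers, 6 had a row, with means between -2.11 and 1.04. Among them *Lsp1alpha* had -3.68 and -3.05 on arrays 2 and 3 and 0.39 on array 1 relative to the medians, while *Lsp2*, read on array 3 alone, had 1.04. *Lsp1alpha* was scored as downregulated and *Fbp1* as upregulated, the second as deposited only. All 7 salivary gland markers had a row, with means between -1.28 and 0.49, and the glue genes *Sgs3* and *Sgs4* were scored as downregulated from arrays 2 and 3, while on array 1 they lay 0.67 and 1.05 above the median, past the opposite threshold. *Sgs5* was scored as upregulated on centred arrays only. Of 9 hemocyte markers, 7 had a row, with means between -1.71 and 1.94, and *Pxn* was scored as downregulated. For neurons and glia, 4 of 8 markers had a row, between -1.10 and 2.11, and for imaginal discs 4 of 7, between -3.43 and 1.57. For pericardial nephrocytes, 6 of 8 markers had a row, between -2.64 and 1.06. Of the 13 marker numbers with at least 2 values, 5 were scored as downregulated and 1 as upregulated as deposited. The shares of all genes were 20.5% and 9.69%. Single markers of heart and muscle, fat body, salivary gland and hemocytes passed downwards on arrays 2 and 3, as *Met* and *Mitf* (CG41130) did. *Zasp52* did so as deposited only. Other markers of the same tissues lay above the medians. The part of such tissue in the values of the bHLH factors was not tested.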

How the data were processed

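Scans were acquired and normalized by the authors in GenePix and Acuity, and the deposited values are log2 ratios, at most 1 for each gene on each array. The normalization method, the filter on spots, the reason for empty cells and the genome build are not given in the sources used here, nor are spot intensities, so that signal over background is unknown and the 3 arrays limit the precision. A protocol field of the labels speaks of RNA from fat bodies, where the methods speak of dissected hearts. The base was checked on values whose ratio fell in a middle range. With base 2 these were 365 of 1372 values on array 1, 1543 of 2650 on array 2 and 6016 of 6459 on array 3. As powers of 2, between 97.7% and 99.2% of them were ratios in whole thousandths (tolerance 0.02) times 1 factor per array (0.933, 0.931 and 0.458). With other bases at most 9.39% of the values in that range were, which fixed the base as 2.

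Members were matched by CG number and named from RefSeq (Release 6 plus ISO1 MT). All 48 had a symbol there. Values were used as deposited and centred on the median of each array. Genes were scored with log2 ratios above 0.41 or below -0.58 on at least 2 arrays. Percentiles are ranks among all values of an array. Factors with 2 or more values are given for every array, those with 1 value by that value, and further genes were described where scored as deposited and on centred arrays, while the other genes of the circadian, ecdysone and hypoxia lists, *hand* and the single markers that are named were added with their values known. Of the fixed lists, 2 symbols could not be resolved to the gene meant and were left out. The members and lists were chosen with earlier results of these data known. Alternatives were other thresholds, rules and scalings, and leaving out each array. The scoring rule was run on simulated data with genes lowered far past the threshold. This checks only that the rule works as written, not how it performs on small changes. Python 3.11.15, numpy 2.4.6, pandas 2.3.3 and matplotlib 3.10.9 were used.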

Additional observations from a re-analysis of the deposited data

How the results depend on the processing

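The factor scored as downregulated as deposited, *Met*, was scored so under every setting in which both of its values entered and 2 arrays sufficed. It could not be scored when all 3 arrays or 3 values were required, which left 0 downregulated factors, nor without array 2 or array 3. *Clk* joined it, giving 2 factors, on centred arrays, on centred arrays with a threshold of 1.5-fold, and when the mean over the arrays had to pass. These settings scored 21.9%, 21.9% and 26.5% of all genes as downregulated. Without array 1, 2 or 3, respectively, 7, 2 and 1 factors could be scored. As deposited, 1, 0 and 0 of them were downregulated, beside 25.3%, 2.45% and 2.26% of all genes. On centred arrays the counts were 2, 0 and 0, beside 25.9%, 11.3% and 15.5% of all genes. The factor scored as upregulated, *E(spl)m5-HLH*, was lost (0 factors) on centred arrays, with or without scaling and at thresholds of 1.5-fold or 2-fold, when all 3 arrays had to pass, and without array 1 or array 2. Leaving out array 1, 2 or 3 gave 0, 0 and 1 upregulated factors as deposited, beside 1.97%, 4.38% and 32.8% of all genes. On centred arrays the count was 0 each time, beside 11.8%, 6.19% and 3.58% of all genes. With the factor of each array removed, 3 factors were upregulated (*nau*, *HLH4C* and *E(spl)m5-HLH*), beside 46.6% of all genes, since the array medians then lay at 1.07, 0.48 and 0.57, and *Met* stayed downregulated. The removal of factors, and both fold thresholds with centring, were added after seeing the data.

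The median over the factors of the mean log2 ratio ran from -0.36 without array 2 to 0.69 with the factors removed. The medians of the bHLH factors on arrays 1, 2 and 3 were 1.11, 0.25 and -0.43 as deposited, 0.15, -0.12 and 0.12 when centred, and 0.19, -0.10 and 0.12 when also scaled. Without array 1, 2 or 3, respectively, 11, 4 and 3 numbers of the further genes could be scored. Of these, 4, 0 and 0 were downregulated, beside 25.3%, 2.45% and 2.26% of all genes. Upregulated were 1, 0 and 1, beside 1.97%, 4.38% and 32.8% of all genes. With the factors removed, 5 of 12 were upregulated, beside 46.6% of all genes. Each value is already a ratio of both genotypes on the same array. No paired test was possible because there is 1 RNA pool of each genotype.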
